A study of Homo sapiens with 21 samples.

Results

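AALE is an immortalized human airway epithelial line, called bronchial in one label and tracheobronchial in another, and kept in SAGM, a Lonza growth medium for airway cells. Its 3 overexpression libraries were compared with the 6 matching libraries of HCC827 and PC9, lung cancer lines that the labels call EGFR mutant, grown in high-glucose DMEM with fetal bovine serum. These 9 libraries were chosen by label from the 21 libraries of the series: AALE, HCC827 and PC9, each infected with lentivirus carrying a scrambled control, MIR147B or MIR21 and selected with puromycin. Each line has 1 library per vector and nothing says that the libraries of a line came from separate cultures, so the 3 vectors serve as its repeats. The p-values below therefore reflect only the spread among these libraries, which may be technical. The line, its tissue of origin, its transformation and its medium all differ between AALE and the tumour lines and cannot be told apart. A gene was called only where it differed from HCC827 and from PC9 in the same direction. The labels also describe 3D organoid culture, and which libraries, if any, came from it is not stated.

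Basal cells are the stem cells of the airway lining and lie on its basement membrane. They are known for the transcription factor TP63, for the paired keratins KRT5 and KRT14, and for the hemidesmosomes and desmosomes that anchor them to the membrane and to each other. Glandular and alveolar cells, from which lung adenocarcinoma is thought to arise, carry instead the simple keratins KRT7, KRT8, KRT18 and KRT19, and type II alveolar cells depend on the factor NKX2-1 for surfactant genes. AALE cells are known to carry the SV40 early region and an introduced human TERT. SAGM is known to be supplied with hydrocortisone, epidermal growth factor and retinoic acid.

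The mature miRNAs of both vectors are shown because they define the block in the main tests of these 9 libraries. Their seeds (bases 2 to 8, in capitals) share no run that would group them. The sequences and positions are from RefSeq on GRCh38.p14, both on the plus strand, at chr15:45433098-45433118 and chr17:59841273-59841294.
hsa-miR-147b-3p: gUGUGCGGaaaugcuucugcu
hsa-miR-21-5p: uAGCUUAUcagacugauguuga
In the miR-147b libraries MIR147B had 526 counts in AALE, 386 in HCC827 and 61 in PC9, and it had 0 in the other 6. MIR21 itself had 0 counts in all 9, in libraries prepared from mRNA, so the counts do not check the miR-21 vector.

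The 9 libraries held 16679299 to 29694050 expected counts, with a median of 21568649, and 18433 of 56632 genes passed the filter on low counts. CPM stands for counts scaled to the size of each library. Correlation of log2 CPM was 0.982 to 0.988 within a line, 0.812 to 0.819 between AALE and HCC827, 0.821 to 0.833 between AALE and PC9 and 0.829 to 0.844 between HCC827 and PC9, as a description over genes. The AALE library with the miR-147b vector stood apart from the other AALE libraries. Of 9773 genes at a mean of 10 CPM or more in AALE, 59 were more than 2-fold above both other AALE libraries there, against 0 in the control and 8 in the miR-21 library. Values without it are given where it moves a result. Mitochondrial transcripts took 1.82% to 2.12% of counts in AALE, 2.38% to 2.54% in HCC827 and 1.35% to 1.5% in PC9, and their part in any result was not tested.

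AALE differed from HCC827 in 12140 genes (65.9% of those tested) and from PC9 in 12249 (66.5%) at an adjusted p of at most 0.05. The test was the quasi-likelihood test of edgeR with vector as a block and p-values adjusted by Benjamini-Hochberg over all genes tested. HCC827 and PC9 differed from each other in 11427 (62%). AALE was higher than both tumour lines in 3855 genes (20.9%) and lower than both in 3603 (19.5%), while 1589 genes (8.62%) were higher than 1 tumour line and lower than the other. With library totals alone as the scale the split became 4829 higher and 2841 lower, and the median log2 fold change of all genes rose from 0.02 to 0.21 against HCC827 and from 0.07 to 0.29 against PC9. Tested against a 2-fold difference, 1238 genes (6.72%) were higher and 1326 (7.19%) lower in AALE than in both lines. By that test alone AALE and HCC827 differed in 28.7% of genes, AALE and PC9 in 28.6% and HCC827 and PC9 in 23.4%.

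The marker genes of basal cells, KRT14 and TP63, were high in AALE and low or at 0 in the tumour lines. Below, the values of a line are given in the order control, miR-147b and miR-21 vector. Log2 fold changes are AALE minus the tumour line, with their standard error. KRT14 stood at 148, 694 and 206 CPM in AALE, 0, 0 and 0 CPM in HCC827 and 0.814, 1.1 and 1.28 CPM in PC9. The lines did not overlap, and the AALE library with the miR-147b vector was the highest. It was at least 7930-fold higher than in HCC827 (adjusted p = 3.36e-07) and had a log2 fold change of 8.20 ± 0.35 against PC9 (adjusted p = 6.56e-07). A fold against a line at 0 is a lower bound, set against a floor of 3 counts over its 3 libraries. Without the AALE miR-147b library KRT14 was at least 4020-fold higher than in HCC827. Against PC9, KRT14 had a log2 fold change of 7.40 without the AALE miR-147b library and 7.39 without that of PC9.

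TP63, the master regulator of basal and squamous epithelium, was at 174, 295 and 164 CPM in AALE, 3.35, 19.1 and 4.03 CPM in HCC827 and 1.24, 1.54 and 1.4 CPM in PC9. All AALE values lay above all tumour values, with the HCC827 miR-147b library highest among the latter. Its log2 fold change was 4.83 ± 0.34 against HCC827 (adjusted p = 1.52e-06) and 7.30 ± 0.41 against PC9 (adjusted p = 3.97e-07), and 5.55 against HCC827 without the miR-147b library of that line. EGFR, the receptor that is mutated in both tumour lines, was at 516, 1222 and 489.8 CPM in AALE, 7749, 6483 and 7594 CPM in HCC827 and 1031, 992 and 1050.1 CPM in PC9. AALE lay far below HCC827 and overlapped PC9, with the miR-147b library highest. EGFR differed by log2 fold changes of -3.38 ± 0.30 against HCC827 (adjusted p = 6.88e-06) and -0.55 ± 0.28 against PC9 (adjusted p = 0.109). EGFR passed the threshold against PC9 at a log2 fold change of -1.09 without the AALE miR-147b library and of -0.62 without that of HCC827.

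**Figure D1:**
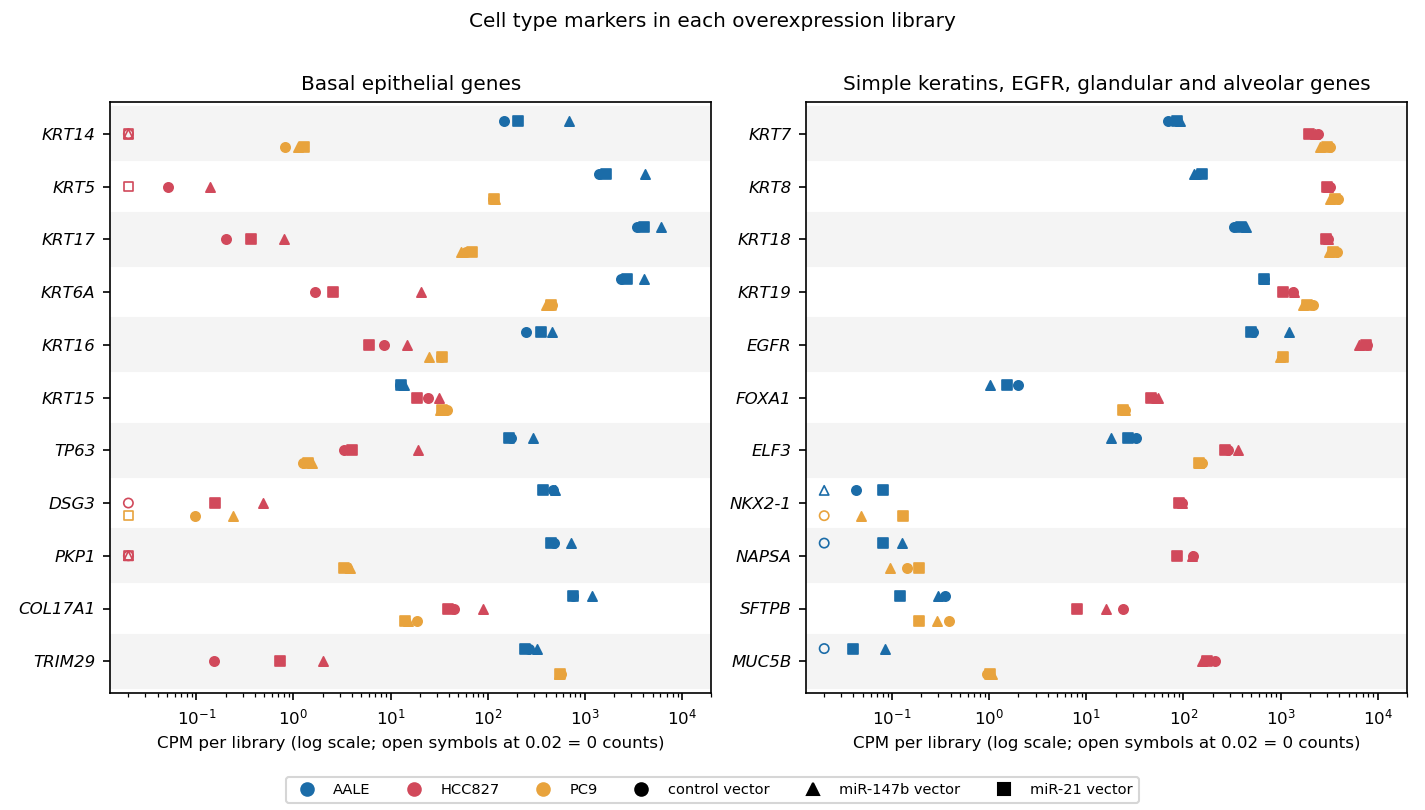
Each symbol is 1 library, coloured by cell line and shaped by vector, at its CPM on a log scale; open symbols mark 0 counts. KRT14, KRT5, KRT17 and DSG3 lie higher in AALE than in either tumour line, KRT7, KRT8 and KRT18 lie lower, TRIM29 is highest in PC9, and NKX2-1, NAPSA and SFTPB stand out in HCC827 alone.

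KRT5, the type II partner of KRT14, had 1403, 4192 and 1666 CPM in AALE, 0.051, 0.138 and 0 CPM in HCC827 and 113, 119 and 117 CPM in PC9. It was nearly absent in HCC827 and well measured in PC9, with no overlap between lines. Its log2 fold change was 14.90 ± 0.51 against HCC827 (adjusted p = 1.68e-08) and 4.19 ± 0.28 against PC9 (adjusted p = 1.11e-06), and 14.28 and 15.80 against HCC827 without the miR-147b library of AALE and of HCC827. KRT17, a keratin of basal and wounded epithelium, had 3475, 6061 and 4049 CPM in AALE, 0.203, 0.792 and 0.362 CPM in HCC827 and 60.0, 52.6 and 69.5 CPM in PC9. The 3 AALE libraries were the highest and HCC827 the lowest, with log2 fold changes of 13.17 ± 0.36 against HCC827 and 6.17 ± 0.26 against PC9, and 13.83 against HCC827 without its miR-147b library. Of the 8 basal keratins 6 were higher in AALE and 1 was lower (75% and 12.5%, beside 20.9% and 19.5% of all genes). The median log2 difference (mean of both comparisons) was 6.98 against 0.04 for all genes tested. It was also 6.98 with KRT14 set at its bound against HCC827. The exception was KRT15, another keratin of airway basal cells, at 12.5, 13.7 and 12.7 CPM in AALE, 24.5, 31.3 and 18.5 CPM in HCC827 and 37.7, 32.3 and 34.2 CPM in PC9. All AALE values of KRT15 lay below all tumour values, and its log2 fold change was -0.92 ± 0.16 against HCC827 (adjusted p = 6.71e-04) and -1.42 ± 0.16 against PC9 (adjusted p = 3.64e-05). KRT6B was called against HCC827 and not against PC9. KRT6A, KRT6B and KRT6C are near-identical, so reads could be divided between them in other ways.

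Of 14 tested regulators and surface genes of basal cells, 9 were higher in AALE and 1, IL1R2, was lower (64.3% and 7.14%, beside 20.9% and 19.5% of all genes). BNC1, a zinc-finger factor of basal keratinocytes, was at 75.1, 99.1 and 72.7 CPM in AALE, 0, 0 and 0 CPM in HCC827 and 0.239, 0.096 and 0.128 CPM in PC9. It was found in AALE and was at or near 0 elsewhere. SNAI2, a repressor found in basal cells, had 69.0 ± 24.4 CPM in AALE, 7.12 ± 0.56 in HCC827 and 7.48 ± 0.743 in PC9 (SD, n = 3), with log2 fold changes of 3.25 ± 0.23 against HCC827 and 3.17 ± 0.23 against PC9. NGFR, a surface receptor of airway basal cells, had 10.2 ± 1.12 CPM in AALE, 0.166 ± 0.101 in HCC827 and 0.325 ± 0.094 in PC9 (SD, n = 3), with log2 fold changes of 5.88 ± 0.33 against HCC827 and 4.95 ± 0.31 against PC9. TRIM29 had 266, 319 and 244 CPM in AALE, 0.152, 2.03 and 0.724 CPM in HCC827 and 566, 536 and 554 CPM in PC9. PC9 was the highest of the 3 lines and HCC827 the lowest, at log2 fold changes of 8.06 ± 0.41 against HCC827 (adjusted p = 1.90e-07) and -1.02 ± 0.28 against PC9 (adjusted p = 0.00836). Without the miR-147b library of HCC827 TRIM29 differed from that line by 9.23 on the log2 scale. The difference from PC9 was not called without the control (-0.87) or the miR-21 library (-0.92) of PC9.

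Desmosome and hemidesmosome genes were higher in AALE in part. Of 11 desmosome genes 7 were higher and 0 lower (63.6% and 0%, beside 20.9% and 19.5% of all genes), with a median of 1.75. DSG3, the desmosomal cadherin of basal cell layers, stood at 471, 495 and 368 CPM in AALE, 0, 0.482 and 0.155 CPM in HCC827 and 0.096, 0.24 and 0 CPM in PC9. All 3 AALE libraries were above 300 CPM and all 6 tumour libraries were below 1. The log2 fold change was 10.85 ± 0.38 against HCC827 (adjusted p = 1.85e-08) and 11.81 ± 0.41 against PC9 (adjusted p = 2.48e-08), and 12.27 and 12.71 without the miR-147b library of the tumour line concerned. Without that of AALE it was 12.16 and 13.01. PKP1, a plakophilin of stratified epithelium, was at 476, 729 and 454 CPM in AALE, 0, 0 and 0 CPM in HCC827 and 3.59, 3.84 and 3.32 CPM in PC9. It was at 0 in all HCC827 libraries and low in PC9. PKP1 was at least 12500-fold higher than in HCC827 (adjusted p = 1.20e-08) and had a log2 fold change of 7.25 ± 0.17 against PC9 (adjusted p = 3.19e-08). DSP, the plaque protein of all desmosomes, had 1963 ± 827 CPM in AALE, 306 ± 16.8 in HCC827 and 402 ± 9.25 in PC9 (SD, n = 3) and differed by log2 fold changes of 2.63 ± 0.22 against HCC827 and 2.24 ± 0.22 against PC9. DSG2, the desmoglein of simple epithelium, was called against PC9 and not against HCC827.

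Of 13 hemidesmosome and laminin-332 genes 6 were higher and 0 lower (46.2% and 0%, beside 20.9% and 19.5% of all genes). Without the AALE miR-147b library 2 were lower. COL17A1, the transmembrane collagen of hemidesmosomes, was at 753, 1179 and 756 CPM in AALE, 44.5, 89.7 and 38.7 CPM in HCC827 and 18.6, 15.1 and 14.0 CPM in PC9. The lines did not overlap, with log2 fold changes of 4.01 ± 0.23 against HCC827 (adjusted p = 3.95e-07) and 5.76 ± 0.25 against PC9 (adjusted p = 8.52e-08). ITGB4, the integrin chain that binds laminin-332, had 785 ± 339.8 CPM in AALE, 138 ± 42.8 in HCC827 and 321 ± 21.3 in PC9 (SD, n = 3) and differed by log2 fold changes of 2.48 ± 0.21 against HCC827 and 1.20 ± 0.20 against PC9. LAMB3, the beta chain of laminin-332, differed by log2 fold changes of 1.74 ± 0.17 against HCC827 and 0.97 ± 0.17 against PC9.

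Genes of the cornified envelope, the cross-linked protein shell of squamous cells, were mostly higher in AALE. Of 26 tested, 20 were higher and 1, EVPL, was lower (76.9% and 3.85%, beside 20.9% and 19.5% of all genes). EVPL was not called against PC9 with library totals alone as the scale. The median log2 difference was 4.22, and the same with genes at 0 in a line set at their bound. RPTN, a fused S100 protein of the envelope, had 19.5, 17.4 and 22.6 CPM in AALE, 0, 0 and 0 CPM in HCC827 and 0, 0 and 0 CPM in PC9. FLG, filaggrin, which binds keratin filaments, was at 31.2, 49.7 and 34.1 CPM in AALE, 0.051, 0.103 and 0.103 CPM in HCC827 and 0, 0 and 0.064 CPM in PC9. Both were found in AALE, at levels that overlapped no tumour library. RPTN was at least 450-fold higher than in HCC827 (adjusted p = 6.44e-06) and at least 379-fold higher than in PC9 (adjusted p = 7.27e-06). SPRR1B, a small proline-rich envelope protein, had 48.7, 135 and 74.0 CPM in AALE, 0.356, 5.71 and 1.4 CPM in HCC827 and 3.06, 2.02 and 2.68 CPM in PC9. AALE was the highest line, and HCC827 was uneven, with its miR-147b library above the other HCC827 libraries and above PC9. Its log2 fold change was 5.18 ± 0.50 against HCC827 (adjusted p = 1.15e-05) and 4.89 ± 0.50 against PC9 (adjusted p = 1.81e-05). Without the miR-147b library of HCC827 it was 6.31 against HCC827, and against PC9 it was 5.57 and 4.17 without the control and the miR-147b library of PC9. IVL, involucrin, the scaffold of the envelope, was at 7.98, 21.0 and 14.9 CPM in AALE, 0.66, 2.24 and 0.775 CPM in HCC827 and 2.06, 2.5 and 2.74 CPM in PC9. The AALE range lay above both tumour lines. Its log2 fold change was 3.57 ± 0.31 against HCC827 (adjusted p = 6.30e-06) and 2.49 ± 0.30 against PC9 (adjusted p = 4.83e-05). KRT13 and KRT4, keratins of internal squamous lining, did not follow: KRT13 was highest in PC9 (2.9 ± 1.36 CPM in AALE, 2.96 ± 2.92 in HCC827 and 135 ± 5.07 in PC9; SD, n = 3) and KRT4 in HCC827 (22.6 ± 14.7 CPM in AALE, 192 ± 44.7 in HCC827 and 2.29 ± 0.38 in PC9; SD, n = 3). The SPRR genes are near-identical copies, so their counts may share reads.

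The promoters of 4 of these genes are shown because all lie in 1 cluster on chromosome 1 and were higher in AALE together. Each run is the 250 bases before the start of the gene as RefSeq gives it on GRCh38.p14, 5′ to 3′ on the gene's strand, with matches on either strand to TGANTCA (the AP-1 motif), TATAAA (the TATA box) and CATTCC (the TEAD motif) in capitals. RPTN lies on the minus strand at chr1:152159229-152159478, IVL on the plus strand at chr1:152908296-152908545, FLG on the minus strand at chr1:152325240-152325489 and SPRR1B on the plus strand at chr1:153030953-153031202.
RPTN: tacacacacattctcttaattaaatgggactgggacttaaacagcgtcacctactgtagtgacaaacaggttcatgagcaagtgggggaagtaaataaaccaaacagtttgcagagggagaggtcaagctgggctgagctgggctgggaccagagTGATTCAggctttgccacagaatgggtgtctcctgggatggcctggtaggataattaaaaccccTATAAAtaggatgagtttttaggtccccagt
IVL: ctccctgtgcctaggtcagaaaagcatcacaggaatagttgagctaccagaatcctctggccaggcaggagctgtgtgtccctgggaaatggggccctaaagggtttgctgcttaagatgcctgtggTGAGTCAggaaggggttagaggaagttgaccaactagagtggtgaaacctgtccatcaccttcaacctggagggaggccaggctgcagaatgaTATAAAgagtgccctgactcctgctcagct
FLG: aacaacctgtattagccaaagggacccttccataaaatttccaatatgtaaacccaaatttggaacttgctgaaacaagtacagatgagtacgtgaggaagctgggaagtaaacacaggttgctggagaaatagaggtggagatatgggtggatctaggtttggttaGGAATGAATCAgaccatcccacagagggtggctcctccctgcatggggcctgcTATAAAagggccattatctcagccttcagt
SPRR1B: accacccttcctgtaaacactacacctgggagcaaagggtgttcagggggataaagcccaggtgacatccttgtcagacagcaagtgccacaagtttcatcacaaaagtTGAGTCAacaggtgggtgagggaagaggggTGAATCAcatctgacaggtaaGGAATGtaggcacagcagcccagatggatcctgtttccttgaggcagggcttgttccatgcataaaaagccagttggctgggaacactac
Each holds 1 or 2 AP-1 matches, RPTN, IVL and FLG hold 1 TATA match, and the single TEAD match of FLG overlaps its AP-1 match. In windows of 250 bases before to 50 after the start, AP-1 was matched in 7.8% of all 27305 promoters in the table, in 5.2% of the 10892 tested genes with an entry and in 9 of 17 cornified envelope genes with an entry (52.9%). The 4 genes shown are all among those 9, so they do not stand for the members without an AP-1 match. TATAAA was matched in 12% of all promoters, 6.2% of tested genes and 10 of the 17. CATTCC was matched in 14% of all promoters, 11% of tested genes and 5 of those 17. Of genes more than 2-fold higher in AALE with an entry, 9% of 734 held the AP-1 motif, beside 5.1% of 824 that were more than 2-fold lower. These are counts of letters, not of bound sites.

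The simple keratins moved the other way. All 4 tested were lower in AALE, beside 19.5% of all genes, with a median of -3.81. KRT7, a keratin of glandular and alveolar cells, was at 69.7, 91.6 and 86.2 CPM in AALE, 2399, 2268 and 1952 CPM in HCC827 and 3260.4, 2568 and 2989.8 CPM in PC9. KRT8, the type II keratin of simple epithelium, was at 144, 127 and 157 CPM in AALE, 3234, 3095 and 3012 CPM in HCC827 and 3895, 3198 and 3589 CPM in PC9. For both, the tumour lines stood together and all AALE libraries lay far below them. For KRT8 the log2 fold change was -4.45 ± 0.11 against HCC827 (adjusted p = 4.29e-09) and -4.64 ± 0.12 against PC9 (adjusted p = 5.17e-09). KRT18, which pairs with KRT8, had 387 ± 53.2 CPM in AALE, 3045 ± 74.0 in HCC827 and 3477 ± 322 in PC9 (SD, n = 3), at log2 fold changes of -2.98 ± 0.13 against HCC827 and -3.17 ± 0.13 against PC9. KRT19 was lower by less, at log2 fold changes of -0.90 ± 0.12 against HCC827 and -1.50 ± 0.12 against PC9.

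Alveolar genes showed no single direction. Of 14 tested alveolar and surfactant genes 2 were higher and 3 lower in AALE (14.3% and 21.4%, beside 20.9% and 19.5% of all genes). NKX2-1 had 0.043, 0 and 0.081 CPM in AALE, 97.4, 97.6 and 90.6 CPM in HCC827 and 0, 0.048 and 0.128 CPM in PC9. It was found in HCC827 and was at or near 0 in both AALE and PC9, and NAPSA and SFTPB showed the same order. SFTPA1, SFTPA2, SFTPC and SFTPD were among 5 members under the filter. ABCA3, the lipid pump of surfactant storage, was lower in AALE than in both lines, at 0.997, 1.05 and 1.62 CPM in AALE, 47.6, 42.2 and 47.5 CPM in HCC827 and 12.9, 13.4 and 13.3 CPM in PC9. No library overlapped between the lines, and the log2 fold change was -5.22 ± 0.17 against HCC827 and -3.43 ± 0.17 against PC9. LAMP3, a lysosomal protein of alveolar type II cells, went the other way, at 154, 104 and 132 CPM in AALE, 10.6, 18.6 and 8.27 CPM in HCC827 and 13.7, 16.3 and 12.9 CPM in PC9, with AALE above both and log2 fold changes of 3.42 ± 0.26 against HCC827 and 3.21 ± 0.26 against PC9.

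Of 11 tested secretory and ciliated airway genes 8 were lower in AALE (72.7%, beside 19.5% of all genes), and 1, CCDC39, was higher. CCDC39 was not called against PC9 (log2 fold change 1.38) without the control or miR-147b library of AALE or without any 1 library of PC9 (0.80 to 1.61). MUC4, a membrane mucin, had 0.477, 0.253 and 0.243 CPM in AALE, 147, 142 and 124 CPM in HCC827 and 152, 184 and 170.5 CPM in PC9. All AALE libraries were below 1 CPM and all tumour libraries above 100. The log2 fold change was -8.71 ± 0.21 against HCC827 (adjusted p = 3.47e-09) and -9.01 ± 0.21 against PC9 (adjusted p = 4.36e-09). MUC5AC was at 0 counts in AALE, and FOXJ1, the factor of ciliated cells, was at 0.014 ± 0.025 CPM in AALE, 2.11 ± 0.273 in HCC827 and 1.43 ± 0.311 in PC9 (SD, n = 3). SCGB1A1 and SCGB3A1 did not pass the filter. Among glandular and endodermal regulators 4 of 15 were higher and 4 lower (26.7% each, beside 20.9% and 19.5% of all genes). FOXA1, a pioneer factor of glandular epithelium, had 1.99, 1.01 and 1.54 CPM in AALE, 48.7, 54.3 and 46.3 CPM in HCC827 and 24.9, 25.3 and 23.7 CPM in PC9. Its relative FOXA2 had 44.6, 61.9 and 45.4 CPM in AALE, 1.57, 2.03 and 0.517 CPM in HCC827 and 0.048, 0.048 and 0 CPM in PC9. AALE was the lowest for FOXA1, at log2 fold changes of -5.04 ± 0.20 against HCC827 and -4.02 ± 0.20 against PC9, and the highest for FOXA2. ELF3, an epithelial ETS factor, was lower in AALE at log2 fold changes of -3.60 ± 0.21 against HCC827 and -2.53 ± 0.20 against PC9, and KLF4, a factor of barrier epithelium, was higher, at log2 fold changes of 1.79 ± 0.12 against HCC827 and 0.81 ± 0.12 against PC9.

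Of 18 carcinoembryonic antigen, mucin and glandular surface genes 3 were higher and 7 lower (16.7% and 38.9%, beside 20.9% and 19.5% of all genes). MUC16, the mucin that carries the CA125 epitope, had 7.02 ± 4.17 CPM in AALE, 372 ± 24.9 in HCC827 and 260.2 ± 28.5 in PC9 (SD, n = 3), at log2 fold changes of -5.81 ± 0.30 against HCC827 and -5.29 ± 0.30 against PC9.

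Markers of other cell types were read beside these lists. Of them CD68, CDH5 and ESAM were lower in AALE than in both lines, and DCN, CLDN5 and CHGB higher. DCN, at log2 fold changes of 2.30 against HCC827 and 2.64 against PC9, was not called without the miR-147b library of AALE (1.16 and 1.67), of HCC827 (1.87 against that line) or of PC9 (1.60 against that line). Summed over 5 tested leukocyte markers the level was 15.8 to 22.5 CPM in AALE, 74.9 to 91.9 in HCC827 and 46.7 to 54.6 in PC9, and PTPRC and CD3E were under the filter. The 4 fibroblast markers summed to 11.8 to 27.0 CPM in AALE, 15.4 to 16.9 in HCC827 and 9.82 to 11.8 in PC9. The endothelial markers summed to 7.03 to 10.4 CPM in AALE, 4.57 to 5.30 in HCC827 and 99.9 to 104.4 in PC9, where CDH5, a cadherin of vessel lining, had 0 ± 0 CPM in AALE, 0.125 ± 0.065 in HCC827 and 55.2 ± 3.75 in PC9 (SD, n = 3). Neuroendocrine markers stayed under 4 CPM in every library. The part of other cells in any result was not tested, and in bulk libraries fewer cells of a type and less RNA per cell cannot be told apart.

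**Figure D2:**
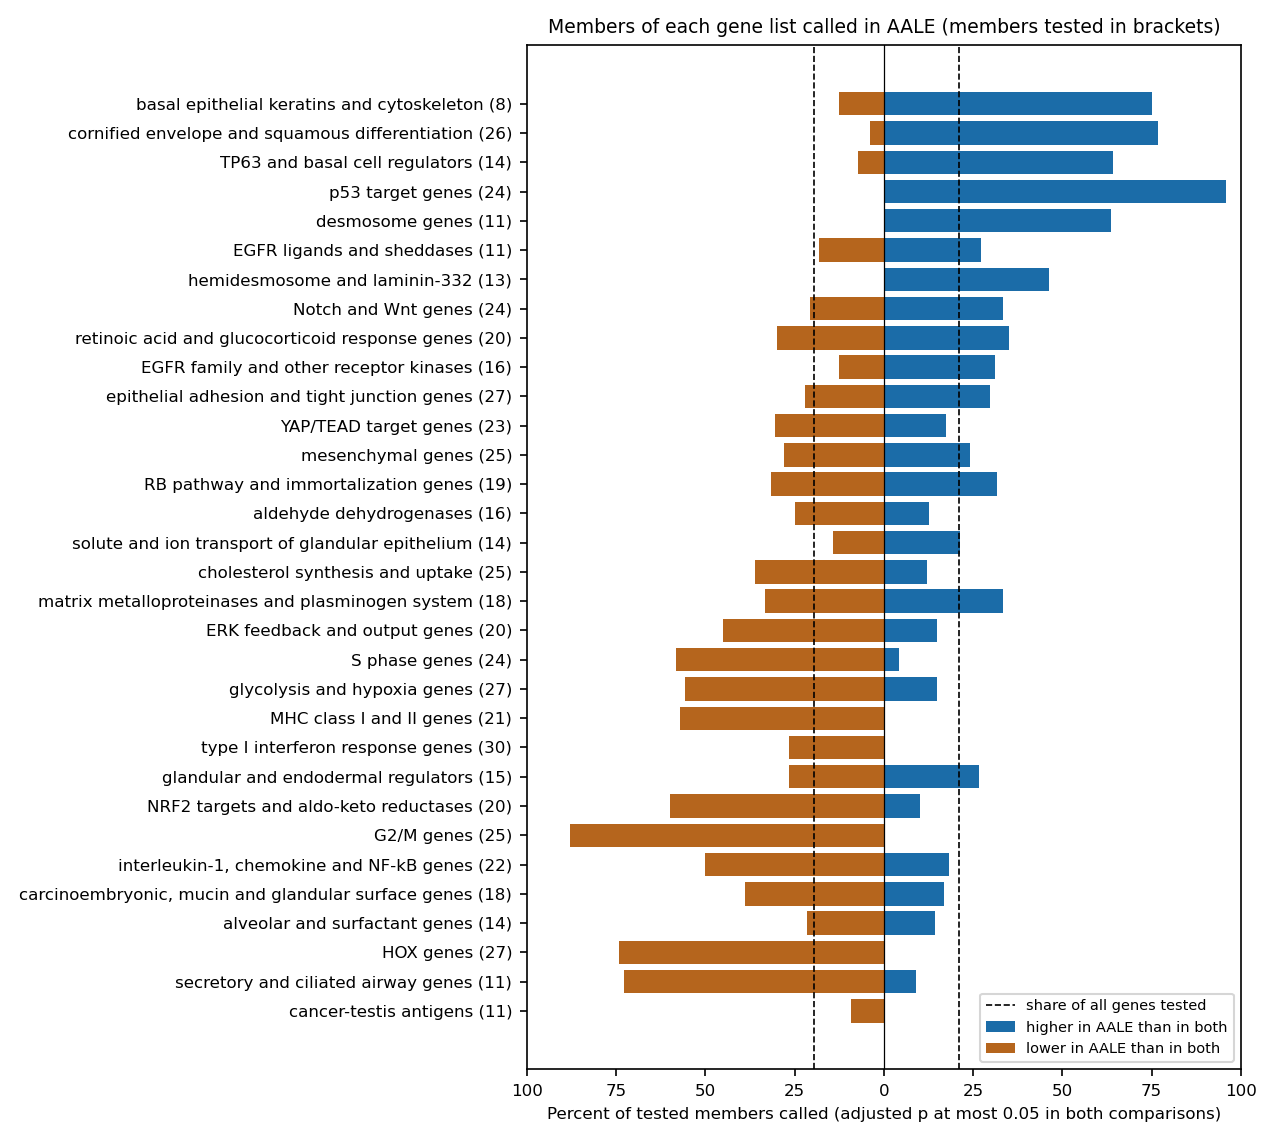
For lists with at least 8 tested members, bars give the percent that were higher (right) or lower (left) in AALE than in both tumour lines, ordered by median log2 difference, with dashed lines at the 20.9% and 19.5% of all genes tested. The p53 targets reach 95.8% on the right and the G2/M genes 88% on the left.

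Targets of p53, the stress-activated tumour suppressor, were the list most often higher in AALE. Of 24 tested, 23 were higher and 0 lower (95.8%, beside 20.9% of all genes), with a median log2 difference of 2.27. CDKN1A, the p21 inhibitor of cyclin-dependent kinases, stood at 1108, 1063 and 1095 CPM in AALE, 5.33, 13.4 and 5.27 CPM in HCC827 and 50.7, 41.2 and 39.0 CPM in PC9. The AALE libraries were close together and above every tumour library. Its log2 fold change was 7.13 ± 0.34 against HCC827 (adjusted p = 1.14e-07) and 4.64 ± 0.29 against PC9 (adjusted p = 7.83e-07). MDM2, the ubiquitin ligase that restrains p53, had 292, 333 and 238 CPM in AALE, 40.7, 48.0 and 48.5 CPM in HCC827 and 42.1, 58.8 and 47.1 CPM in PC9. The groups did not overlap, and the log2 fold change was 2.65 ± 0.13 against HCC827 (adjusted p = 1.76e-07) and 2.55 ± 0.13 against PC9 (adjusted p = 2.27e-07). SPATA18, a mitochondrial quality gene, had 57.8, 47.4 and 48.2 CPM in AALE, 0, 0.034 and 0.052 CPM in HCC827 and 0, 0 and 0 CPM in PC9. It was found in all 3 AALE libraries and was at or near 0 in the tumour lines. FAS, a death receptor, was at 65.6 ± 8.53 CPM in AALE, 12.7 ± 1.92 in HCC827 and 8.57 ± 1.74 in PC9 (SD, n = 3), with log2 fold changes of 2.38 ± 0.17 against HCC827 and 2.95 ± 0.17 against PC9. BAX, the pore-forming cell death protein, differed least, with 96.5 ± 13.2 CPM in AALE, 69.9 ± 1.93 in HCC827 and 76.2 ± 5.2 in PC9 (SD, n = 3) and log2 fold changes of 0.46 ± 0.11 against HCC827 and 0.34 ± 0.11 against PC9. Against PC9 it was not called without the AALE miR-21 library (0.21) or without the PC9 miR-147b (0.32) or miR-21 library (0.26). The exception was PMAIP1, which was lower than in HCC827 and higher than in PC9, at log2 fold changes of -0.58 ± 0.14 against HCC827 and 2.07 ± 0.15 against PC9.

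Genes of the cell cycle were counted in a G2/M and an S phase list. Of 25 tested G2/M genes 0 were higher and 22 lower (88.0%, beside 19.5% of all genes), with a median of -1.70. Over the 22 the log2 fold change ran from -3.55 to -0.75 against HCC827 and from -2.94 to -0.36 against PC9. PLK1, the kinase that drives mitotic entry, had 12.0, 27.7 and 17.1 CPM in AALE, 178, 158 and 176 CPM in HCC827 and 149, 156 and 121 CPM in PC9. The AALE libraries lay below all tumour libraries, with the control the lowest, and the log2 fold change was -3.22 ± 0.24 against HCC827 (adjusted p = 1.88e-06) and -2.94 ± 0.23 against PC9 (adjusted p = 3.23e-06). CDC20, the activator of the anaphase-promoting complex, had 47.4 ± 17.5 CPM in AALE, 542 ± 41.6 in HCC827 and 243 ± 18.3 in PC9 (SD, n = 3), at log2 fold changes of -3.55 ± 0.23 against HCC827 and -2.38 ± 0.22 against PC9. MKI67, the proliferation antigen, differed by less, with 249.9, 300.2 and 228 CPM in AALE, 479, 374 and 454 CPM in HCC827 and 430.2, 423 and 409 CPM in PC9. No AALE library reached a tumour library, and the log2 fold change was -0.75 ± 0.13 against HCC827 (adjusted p = 6.82e-04) and -0.70 ± 0.13 against PC9 (adjusted p = 0.00104). CENPE, HMMR and KIF11 were not called. Of 24 S phase genes 14 were lower (58.3%, beside 19.5% of all genes) and 1, CHAF1B, was higher, with a median of -0.65. TYMS, thymidylate synthase, had 57.5 ± 5.02 CPM in AALE, 170.3 ± 17.3 in HCC827 and 167 ± 3.32 in PC9 (SD, n = 3), at log2 fold changes of -1.56 ± 0.10 against HCC827 and -1.54 ± 0.10 against PC9.

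**Figure D3:**
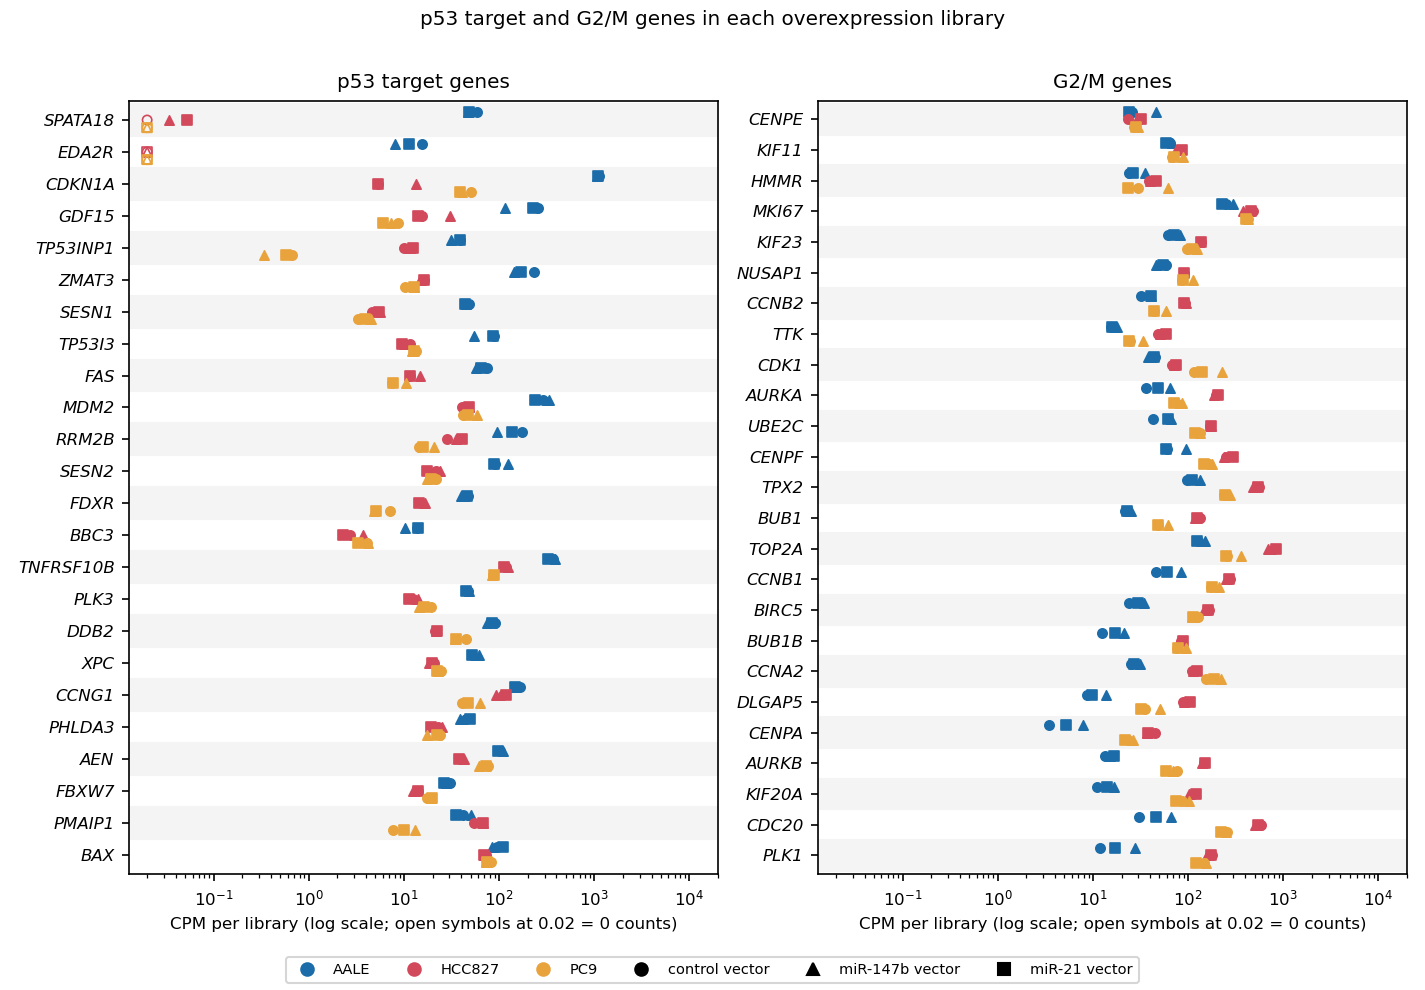
Each symbol is 1 library at its CPM on a log scale, coloured by line and shaped by vector, for 24 p53 targets (left) and 25 G2/M genes (right), ordered by their mean log2 difference. AALE lies to the right of both tumour lines for CDKN1A, MDM2 and most other targets, with PMAIP1 highest in HCC827, and to the left for PLK1, CDC20 and most G2/M genes.

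Of 19 genes of the RB pathway and of immortalization 6 were higher and 6 lower (31.6% each, beside 20.9% and 19.5% of all genes). TERT, the catalytic part of telomerase, had 70.8, 193 and 63.2 CPM in AALE, 4.93, 3.92 and 5.84 CPM in HCC827 and 0.431, 0.384 and 0.319 CPM in PC9. AALE was the highest line, and its miR-147b library was the highest of all. The log2 fold change was 4.32 ± 0.36 against HCC827 (adjusted p = 4.63e-06) and 8.04 ± 0.49 against PC9 (adjusted p = 6.56e-07), and 3.65 and 7.29 without that library. Without the miR-147b library of HCC827 it was 3.67 against HCC827. In counts per gene, transcripts of an introduced TERT and of the cell's own gene cannot be told apart. CCND2, a D-type cyclin, had 66.7, 85.6 and 72.2 CPM in AALE, 0.051, 0.069 and 0.052 CPM in HCC827 and 0.048, 0.048 and 0 CPM in PC9. Its relative CCND1 had 207, 249 and 219.7 CPM in AALE, 489, 473 and 447 CPM in HCC827 and 579, 553 and 621 CPM in PC9. The cyclins differed in direction: CCND2 was near 0 in the tumour lines, and CCND1 was lower in AALE, at log2 fold changes of -1.06 ± 0.11 against HCC827 and -1.38 ± 0.11 against PC9. CDKN2B, the p15 inhibitor of D-type cyclin kinases, was higher in AALE, at log2 fold changes of 2.27 ± 0.12 against HCC827 and 2.70 ± 0.12 against PC9. CDK4, the kinase partner of D-type cyclins, had 178, 222 and 205 CPM in AALE, 5511, 4719.7 and 5168 CPM in HCC827 and 589, 397 and 448 CPM in PC9. HCC827 stood far above the other lines, and AALE was the lowest, at log2 fold changes of -4.66 ± 0.17 against HCC827 (adjusted p = 2.69e-08) and -1.23 ± 0.15 against PC9 (adjusted p = 5.83e-05).

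HOX genes, which give cells their position along the body axis, were mostly lower in AALE. Of 27 tested, 0 were higher and 20 lower (74.1%, beside 19.5% of all genes), with a median of -3.80, and the same with genes at 0 set at their bound. HOXA3 had 0.867, 0.505 and 0.688 CPM in AALE, 45.9, 41.9 and 43.6 CPM in HCC827 and 43.5, 47.1 and 45.4 CPM in PC9. Both tumour lines stood near the same level and AALE lay below 1 CPM, at a log2 fold change of -5.99 ± 0.17 against HCC827 (adjusted p = 6.97e-09) and -6.04 ± 0.17 against PC9 (adjusted p = 9.23e-09). HOXB7 had 1.21, 1.05 and 1.13 CPM in AALE, 17.3, 17.4 and 16.6 CPM in HCC827 and 34.1, 28.4 and 30.7 CPM in PC9. The lines kept the order PC9, HCC827, AALE, at log2 fold changes of -3.91 ± 0.15 against HCC827 (adjusted p = 3.00e-08) and -4.77 ± 0.15 against PC9 (adjusted p = 1.49e-08). HOXB8 was at 0 in all AALE libraries and was at least 88.9-fold lower than in HCC827 (adjusted p = 4.89e-06) and at least 22.2-fold lower than in PC9 (adjusted p = 4.76e-05). The filter removed 10 further HOX genes, 7 of them HOXD genes.

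**Figure D4:**
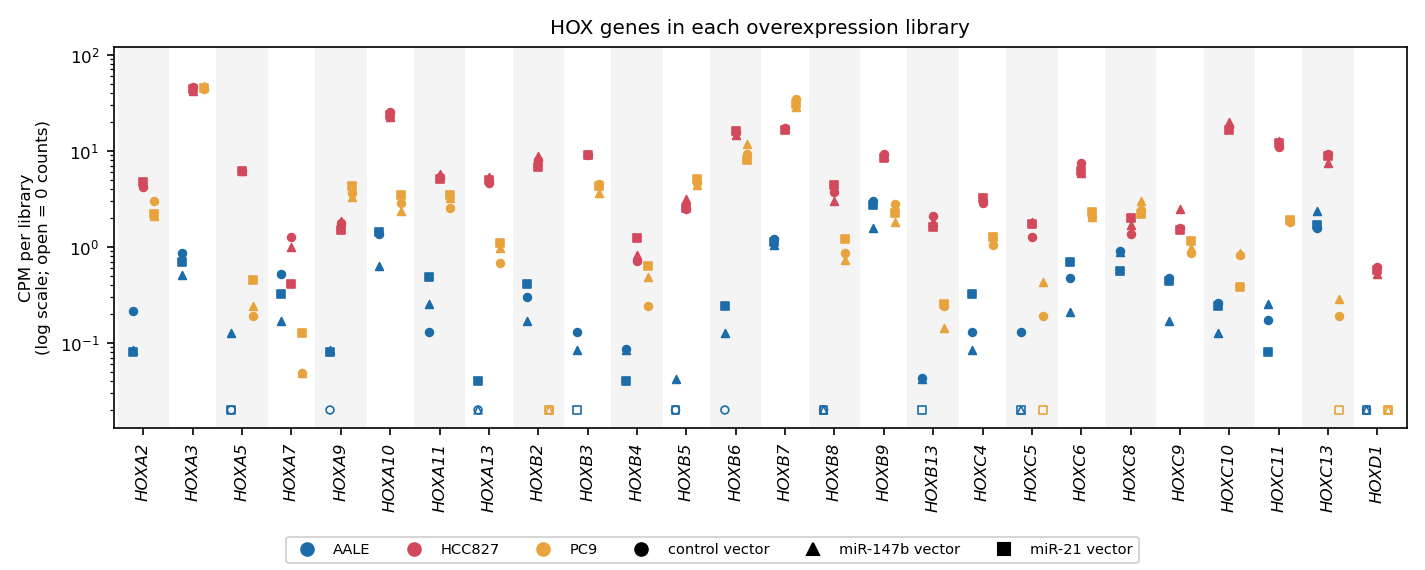
Each symbol is 1 library at its CPM on a log scale for 26 of the 27 tested HOX genes in cluster order, coloured by line and shaped by vector, with open symbols at 0 counts. AALE lies lowest for most genes, with HOXA3 and HOXB7 apart from it in both tumour lines and HOXA7 and HOXC13 lowest in PC9.

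Of 21 tested MHC genes, which serve antigen presentation, 0 were higher in AALE, 12 were lower (57.1%, beside 19.5% of all genes) and 9 were not called, with a median of -1.11. PSMB9, a subunit of the immunoproteasome, had 1.39, 2.02 and 1.25 CPM in AALE, 19.0, 25.1 and 16.3 CPM in HCC827 and 21.0, 14.0 and 16.1 CPM in PC9. The groups did not overlap, at log2 fold changes of -3.69 ± 0.24 against HCC827 (adjusted p = 8.97e-07) and -3.46 ± 0.24 against PC9 (adjusted p = 1.44e-06). B2M, the light chain of class I, was lower by less, at log2 fold changes of -0.59 ± 0.14 against HCC827 and -0.63 ± 0.14 against PC9. HLA-B was lower at log2 fold changes of -1.18 ± 0.25 against HCC827 and -1.05 ± 0.24 against PC9. HLA genes vary between people and resemble each other, so their counts depend on how reads were assigned. Of 30 interferon response genes 0 were higher and 8 lower (26.7%, near the 19.5% of all genes), and 4 were lower in the fit of all 15 miRNA libraries. All 30 had their highest mean level in HCC827.

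Interleukin-1 genes and chemokines differed in direction. Of 22 tested, 4 were higher in AALE (IL1A, IL1B, IL1RN and TSLP) and 11 lower. These were 18.2% and 50%, beside 20.9% and 19.5% of all genes. IL1A, an alarmin of squamous epithelium, had 44.3, 138 and 39.3 CPM in AALE, 0.813, 3.51 and 1.45 CPM in HCC827 and 1.2, 1.39 and 1.02 CPM in PC9. AALE was the highest line and its miR-147b library stood above the others. IL1A differed by log2 fold changes of 5.21 ± 0.27 against HCC827 (adjusted p = 2.04e-07) and 5.80 ± 0.29 against PC9 (adjusted p = 1.73e-07), and by 5.20 against PC9 without the miR-147b library of PC9. IL1RN, the natural antagonist of the same receptor, had 54.4 ± 16.0 CPM in AALE, 4.61 ± 2.39 in HCC827 and 14.3 ± 0.901 in PC9 (SD, n = 3), at log2 fold changes of 3.58 ± 0.20 against HCC827 and 1.89 ± 0.18 against PC9. CXCL1, a neutrophil chemokine, went the other way, with 0.477, 1.94 and 0.566 CPM in AALE, 37.9, 97.6 and 37.1 CPM in HCC827 and 35.4, 37.8 and 38.9 CPM in PC9. Every AALE library was below 2 CPM and every tumour library above 35, at log2 fold changes of -5.83 ± 0.36 against HCC827 (adjusted p = 6.77e-07) and -5.39 ± 0.37 against PC9 (adjusted p = 1.19e-06). ICAM1, an adhesion molecule induced by NF-kB, had 7.46 ± 1.16 CPM in AALE, 198 ± 35.1 in HCC827 and 129.7 ± 9.45 in PC9 (SD, n = 3), at log2 fold changes of -4.73 ± 0.18 against HCC827 and -4.12 ± 0.18 against PC9. NFKBIA, the inhibitor and target of NF-kB, was lower as well, at log2 fold changes of -1.98 ± 0.13 against HCC827 and -1.22 ± 0.13 against PC9.

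Of 20 targets of NRF2, the factor of the antioxidant response, 12 were lower in AALE (60.0%, beside 19.5% of all genes) and 2, SLC7A11 and GCLC, higher. GCLC was not called without the control or the miR-147b library of PC9, and neither was called in the fit of all 15 miRNA libraries. NQO1, a quinone reductase, had 56.3, 69.0 and 47.3 CPM in AALE, 327, 305 and 292 CPM in HCC827 and 406, 371 and 407 CPM in PC9. All AALE libraries were below 100 CPM and all tumour libraries above 200, at log2 fold changes of -2.43 ± 0.14 against HCC827 (adjusted p = 3.40e-07) and -2.79 ± 0.14 against PC9 (adjusted p = 1.66e-07). AKR1C3, an aldo-keto reductase, had 4.75 ± 0.833 CPM in AALE, 67.5 ± 4.41 in HCC827 and 630.1 ± 15.1 in PC9 (SD, n = 3). KEAP1, which holds NRF2 in check, was also lower, at log2 fold changes of -1.13 ± 0.10 against HCC827 and -2.69 ± 0.10 against PC9, and NFE2L2, the gene of NRF2, was higher, at log2 fold changes of 1.20 ± 0.11 against HCC827 and 0.93 ± 0.11 against PC9. Of 27 glycolysis and hypoxia genes 15 were lower and 4 higher (55.6% and 14.8%, beside 19.5% and 20.9% of all genes). ENO1, an enolase, had 715, 1194 and 794 CPM in AALE, 4598, 4144 and 4857 CPM in HCC827 and 3019, 2551 and 2781 CPM in PC9. The tumour lines lay above AALE without overlap, at log2 fold changes of -2.35 ± 0.19 against HCC827 (adjusted p = 3.18e-06) and -1.64 ± 0.18 against PC9 (adjusted p = 3.10e-05). LDHA, lactate dehydrogenase, was lower too, at log2 fold changes of -1.58 ± 0.16 against HCC827 and -1.16 ± 0.16 against PC9. The higher members included CA12, NDRG1 and VEGFA. VEGFA, the endothelial growth factor, had 205 ± 46.7 CPM in AALE, 81.3 ± 17.7 in HCC827 and 68.7 ± 1.47 in PC9 (SD, n = 3), at log2 fold changes of 1.33 ± 0.14 against HCC827 and 1.55 ± 0.14 against PC9. Of 25 cholesterol genes 9 were lower and 3 higher (36% and 12%, beside 19.5% and 20.9% of all genes). Of 16 aldehyde dehydrogenases 4 were lower (25%, near the share of all genes) and 2 higher, and 7 were lower without the AALE miR-147b library. ALDH1L2, a mitochondrial folate enzyme, had 176, 226 and 152 CPM in AALE, 1.17, 1.55 and 1.76 CPM in HCC827 and 3.45, 4.23 and 3.44 CPM in PC9. AALE stood far above both lines, at log2 fold changes of 6.95 ± 0.17 against HCC827 (adjusted p = 3.98e-09) and 5.63 ± 0.16 against PC9 (adjusted p = 8.82e-09).

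Of 20 tested glucocorticoid and retinoic acid response genes 7 were higher and 6 lower in AALE. These were 35% and 30%, beside 20.9% and 19.5% of all genes. The higher were DUSP1, FKBP5, KLF9, MT1X, PER1, TSC22D3 and ZBTB16, and the lower CRABP2, CYP26B1, DHRS3, SGK1, STRA6 and TGM2. FKBP5, a chaperone partner induced by glucocorticoids, had 284, 387 and 280.3 CPM in AALE, 67.1, 57.5 and 75.8 CPM in HCC827 and 28.3, 30.4 and 35.7 CPM in PC9. AALE was above both lines in every library, at log2 fold changes of 2.25 ± 0.16 against HCC827 (adjusted p = 1.70e-06) and 3.34 ± 0.17 against PC9 (adjusted p = 2.06e-07). KLF9, a glucocorticoid-induced factor of the circadian network, was higher too, at log2 fold changes of 5.78 ± 0.16 against HCC827 and 4.62 ± 0.15 against PC9. TSC22D3, which encodes the leucine zipper GILZ, differed by log2 fold changes of 1.81 ± 0.10 against HCC827 and 2.27 ± 0.11 against PC9. SGK1, also a glucocorticoid target, was lower, at log2 fold changes of -2.39 ± 0.11 against HCC827 and -2.10 ± 0.11 against PC9. The receptor gene NR3C1 was higher, at log2 fold changes of 0.77 ± 0.13 against HCC827 and 0.99 ± 0.13 against PC9. CRABP2, which carries retinoic acid to the nucleus, had 9.62, 13.7 and 8.13 CPM in AALE, 69.4, 88.4 and 59.3 CPM in HCC827 and 109, 97.5 and 95.9 CPM in PC9. TGM2, transglutaminase 2, had 7.98, 12.0 and 8.49 CPM in AALE, 141, 129 and 115 CPM in HCC827 and 3511, 3061 and 3344 CPM in PC9. Both were lowest in AALE. CRABP2 differed by log2 fold changes of -2.79 ± 0.15 against HCC827 and -3.30 ± 0.16 against PC9. Line and medium cannot be told apart in these values.

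Of 16 tested receptor kinases 5 were higher (DDR2, FGFR1, FGFR2, FGFR3 and IGF1R) and 2 lower (ERBB3 and FGFR4), or 31.2% and 12.5% beside 20.9% and 19.5% of all genes. DDR2 was at 0.73, 0.83 and 1.12 CPM in AALE on the scale of all 21 libraries. Without the AALE miR-21 library it was not called against HCC827 (log2 fold change 1.81, from 2.22) or PC9 (2.04, from 2.42). Against HCC827 it was not called without the control (1.95) or miR-21 library (2.08) of that line. Against PC9 it was not called without the miR-147b (1.88) or miR-21 library (1.99) of PC9. In the EGFR family itself EGFR and ERBB2 were not called and ERBB4 was under the filter. FGFR3, a fibroblast growth factor receptor, had 36.1, 41.9 and 37.7 CPM in AALE, 10.2, 12.3 and 8.27 CPM in HCC827 and 2.44, 2.11 and 2.49 CPM in PC9. AALE was the highest line, at log2 fold changes of 1.91 ± 0.15 against HCC827 (adjusted p = 2.41e-06) and 4.04 ± 0.17 against PC9 (adjusted p = 7.03e-08). ERBB3, the partner receptor of EGFR, was lower, at log2 fold changes of -1.20 ± 0.18 against HCC827 and -1.74 ± 0.18 against PC9. Of 11 EGFR ligands and sheddases 3 were higher and 2 lower (27.3% and 18.2%, beside 20.9% and 19.5% of all genes). Without the PC9 miR-147b library 1 was lower. AREG, amphiregulin, had 338, 423 and 308 CPM in AALE, 113, 145 and 90.3 CPM in HCC827 and 9.09, 9.99 and 9.25 CPM in PC9. The lines kept the order AALE, HCC827, PC9 without overlap, at log2 fold changes of 1.63 ± 0.11 against HCC827 (adjusted p = 1.38e-06) and 5.23 ± 0.14 against PC9 (adjusted p = 6.51e-09). TGFA was higher than in both lines too, at log2 fold changes of 2.42 ± 0.14 against HCC827 and 0.52 ± 0.13 against PC9. Of 20 ERK feedback and output genes 3 were higher and 9 lower (15% and 45%, beside 20.9% and 19.5% of all genes). EGR1, an immediate early gene, had 126, 156 and 110.4 CPM in AALE, 12.6, 18.2 and 12.0 CPM in HCC827 and 1.44, 1.49 and 1.72 CPM in PC9, the highest values being in AALE. The log2 fold change was 3.20 ± 0.13 against HCC827 (adjusted p = 4.75e-08) and 6.41 ± 0.17 against PC9 (adjusted p = 6.43e-09). SPRY1, a feedback inhibitor of the pathway, had 3.29 ± 0.447 CPM in AALE, 19.1 ± 2.98 in HCC827 and 13.5 ± 0.355 in PC9 (SD, n = 3), at log2 fold changes of -2.53 ± 0.15 against HCC827 and -2.04 ± 0.15 against PC9.

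Epithelial and mesenchymal genes gave no single direction. Of 27 adhesion and tight junction genes 8 were higher and 6 lower (29.6% and 22.2%, beside 20.9% and 19.5% of all genes). CDH1, E-cadherin, had 749, 767 and 687 CPM in AALE, 352, 448 and 241 CPM in HCC827 and 161, 159 and 165 CPM in PC9. AALE was the highest line, at log2 fold changes of 1.11 ± 0.16 against HCC827 (adjusted p = 1.81e-04) and 2.18 ± 0.17 against PC9 (adjusted p = 2.37e-06). CLDN3, a claudin of glandular epithelium, was lower, at log2 fold changes of -8.04 ± 0.32 against HCC827 and -5.92 ± 0.34 against PC9. CLDN1, a claudin of stratified epithelium, was higher, at log2 fold changes of 2.10 ± 0.20 against HCC827 and 1.46 ± 0.19 against PC9. Of 25 mesenchymal genes 6 were higher and 7 lower (24% and 28%, beside 20.9% and 19.5% of all genes). FN1, fibronectin, had 614, 2797 and 1103 CPM in AALE, 407, 395 and 394 CPM in HCC827 and 565, 532 and 483 CPM in PC9. The AALE libraries spread widely and all lay above the tumour lines, at log2 fold changes of 1.73 ± 0.38 against HCC827 and 1.33 ± 0.37 against PC9. Without the AALE miR-147b library these were 1.07 and 0.66, and without that of PC9 the difference from PC9 was not called (0.97). CDH2, N-cadherin, was lower at log2 fold changes of -1.78 ± 0.24 against HCC827 and -1.54 ± 0.24 against PC9. VIM, vimentin, was far below HCC827 and not called against PC9, at log2 fold changes of -3.29 ± 0.34 against HCC827 and -0.51 ± 0.32 against PC9, and without the AALE miR-147b library it was called against PC9 as well (-0.89). Of the collagen VI chains COL6A1 and COL6A2 were lower and COL6A3 was not called. COL6A1 had 1.97 ± 0.058 CPM in AALE, 64.5 ± 12.5 in HCC827 and 129.6 ± 15.3 in PC9 (SD, n = 3) and COL6A2 0.388 ± 0.154 CPM in AALE, 39.4 ± 8.84 in HCC827 and 94.0 ± 12.0 in PC9 (SD, n = 3).

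Of 18 metalloproteinase and plasminogen genes 6 were higher and 6 lower (33.3% each, beside 20.9% and 19.5% of all genes). MMP14, the membrane metalloproteinase, had 152, 177 and 162 CPM in AALE, 0.254, 0.447 and 0.155 CPM in HCC827 and 27.4, 28.0 and 22.7 CPM in PC9. AALE was the highest line and HCC827 was below 1 CPM, at log2 fold changes of 9.06 ± 0.21 against HCC827 (adjusted p = 2.80e-09) and 2.65 ± 0.13 against PC9 (adjusted p = 1.66e-07). PLAU, urokinase, was lower, at 32.4, 51.5 and 33.8 CPM in AALE, 602, 547 and 492 CPM in HCC827 and 268, 225 and 226 CPM in PC9. The log2 fold change was -3.81 ± 0.18 against HCC827 (adjusted p = 1.13e-07) and -2.62 ± 0.17 against PC9 (adjusted p = 9.32e-07). Of 23 YAP and TEAD targets 4 were higher and 7 lower (17.4% and 30.4%, beside 20.9% and 19.5% of all genes). IGFBP3, a binding protein of insulin-like growth factors, had 4.68, 10.9 and 5.02 CPM in AALE, 381, 584 and 290.1 CPM in HCC827 and 2066, 2026 and 2209 CPM in PC9. It was lowest in AALE in all libraries, at log2 fold changes of -5.94 ± 0.28 against HCC827 (adjusted p = 1.05e-07) and -8.36 ± 0.30 against PC9 (adjusted p = 2.94e-08). Of 24 Notch and Wnt genes 8 were higher and 5 lower (33.3% and 20.8%, beside 20.9% and 19.5% of all genes). DLL1, a Notch ligand, had 6.46, 12.8 and 7.69 CPM in AALE, 0.254, 0.241 and 0.207 CPM in HCC827 and 0, 0 and 0 CPM in PC9. HES2, a factor of the HES family, had 34.2 ± 3.05 CPM in AALE, 0.895 ± 0.18 in HCC827 and 2.41 ± 0.413 in PC9 (SD, n = 3), at log2 fold changes of 5.28 ± 0.21 against HCC827 and 3.82 ± 0.19 against PC9. Of 14 transport genes 3 were higher and 2 lower (21.4% and 14.3%, near the 20.9% and 19.5% of all genes). Among them CLCA2, a p63-linked chloride channel regulator, had 71.6 ± 8.38 CPM in AALE, 1.88 ± 1.19 in HCC827 and 0.165 ± 0.106 in PC9 (SD, n = 3). In a list of cancer-testis and oncofetal genes 0 of 11 tested were higher and 1 was lower (9.09%, beside 19.5% of all genes). None of the tested MAGE, PRAME and XAGE genes was called, and the lower gene was IGF2BP1, an oncofetal RNA-binding protein, at log2 fold changes of -2.98 ± 0.14 against HCC827 and -3.80 ± 0.14 against PC9. By mean level 0 of the 11 were highest in AALE, 4 in HCC827 and 7 in PC9. MAGEA3 had 0.013 CPM in AALE, 0.017 in HCC827 and 187 in PC9, and PRAME 0.013, 15.9 and 0 in the same order.

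Over all genes, the ranking by the smaller of the 2 absolute log2 fold changes led to genes at or near 0 on the low side. PNLIPRP3, a pancreatic lipase relative, had 62.9, 83.3 and 60.4 CPM in AALE, 0, 0 and 0 CPM in HCC827 and 0, 0 and 0 CPM in PC9. It was at least 1560-fold higher than in HCC827 (adjusted p = 9.01e-07) and at least 1320-fold higher than in PC9 (adjusted p = 1.06e-06). EYA2, a phosphatase and transcriptional coactivator, had 30.8, 30.2 and 30.5 CPM in AALE, 0, 0 and 0 CPM in HCC827 and 0, 0 and 0 CPM in PC9. EYA2 was at least 692-fold higher than in HCC827 (adjusted p = 3.14e-06) and at least 583-fold higher than in PC9 (adjusted p = 3.59e-06). Both were at 0 in all 6 tumour libraries. The other leading higher genes were TMEM246, SLC6A15, RPTN, KRT1, EVC2, EDA2R, DSG3, SPATA18, AUTS2, CCND2, PDPN, DUOXA1 and TBX18, of which KRT1 varied most among AALE libraries (5.33, 35.7 and 11.4 CPM in AALE, 0, 0 and 0 CPM in HCC827 and 0, 0 and 0 CPM in PC9). In the other direction UCA1, a long non-coding RNA known from bladder cancer, had 0.433, 0.421 and 0.405 CPM in AALE, 894, 964 and 881 CPM in HCC827 and 269, 249 and 301 CPM in PC9. Its log2 fold change was -11.07 ± 0.17 against HCC827 (adjusted p = 1.74e-09) and -9.33 ± 0.17 against PC9 (adjusted p = 3.65e-09). SPP1, osteopontin, had 0, 0.042 and 0.04 CPM in AALE, 112, 163 and 190.2 CPM in HCC827 and 164, 240.1 and 212 CPM in PC9. Only 2 counts were found over the AALE libraries, so no fold is given, and it was lower than in HCC827 at an adjusted p of 2.59e-09 and lower than in PC9 at an adjusted p of 4.36e-09. SLCO1B3, an organic anion transporter, was at 0 in AALE and was at least 480-fold lower than in HCC827 (adjusted p = 1.77e-07) and at least 784-fold lower than in PC9 (adjusted p = 1.22e-07). Further lower genes were SNORD86, MUC4, HKDC1, TSPYL5, ADAMTS16, ADAMTS9, PDZK1IP1, KIAA1462, GPRC5B, COL6A2 and DGKG. SNORD86 lies within a host gene, and libraries from mRNA measure such small RNAs poorly.

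As a count of levels, 69 genes (0.374% of those tested, 64 of them protein coding) stood at 5 CPM or more in all 3 AALE libraries and under 0.5 CPM in all 6 tumour libraries, and 37 (0.201%, 28 protein coding) showed the reverse. In the 3 control-vector libraries alone the counts were 98 and 66, and with fewer libraries to meet the limits such counts can only stay or rise. INPP5D, a lipid phosphatase best known from blood cells, was the highest of the 69 after DSG3, at 151, 143 and 133 CPM in AALE, 0.203, 0.344 and 0.258 CPM in HCC827 and 0.239, 0.192 and 0.191 CPM in PC9, and was named after its values were seen. The 69 held 5 of the 26 tested cornified envelope genes (19.2%): FLG, KRT1, LCE3D, RPTN and SBSN.

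**Figure D5:**
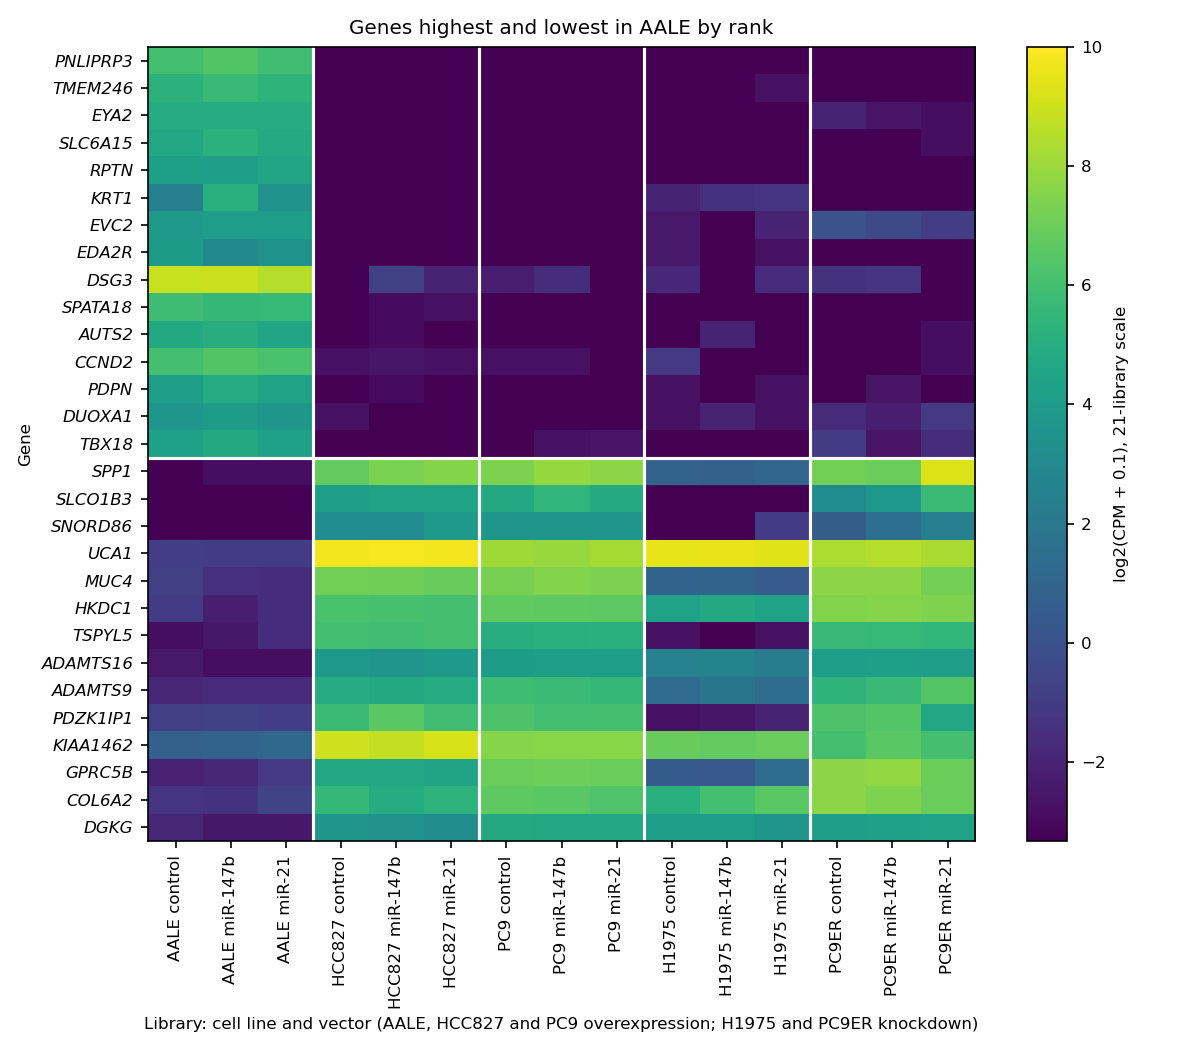
Colour gives log2(CPM + 0.1) on a scale shared by all 21 libraries, for the 15 genes ranked highest and 14 of the 15 ranked lowest in AALE (rows) in 15 libraries of 5 lines (columns). The upper rows are bright in the 3 AALE columns alone. The lower rows are dark in AALE and brighter in HCC827 and PC9, and several of them, such as SPP1, SLCO1B3, MUC4, TSPYL5 and PDZK1IP1, are darker in H1975 than in the other tumour lines.

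H1975 and PC9ER, further EGFR-mutant lung cancer lines, were not used by the rule. The name PC9ER refers to PC9, a line that the rule did use, so PC9ER cannot be read as independent of PC9. Their 3 libraries each come from knockdown of a control, miR-147b or miR-21, a different construct, so the fit had line alone as a term. The same AALE libraries enter both comparisons, so values are given side by side and no overlap is drawn. Against both H1975 and PC9ER AALE was higher in 2343 of 18414 genes (12.7%) and lower in 2675 (14.5%). Without the miR-21 library of PC9ER the higher count became 3560. KRT14 had 0.23, 0.27 and 0.05 CPM in H1975 and 0.49, 0.72 and 0.57 CPM in PC9ER, and TP63 had 1.06, 1.69 and 1.39 CPM in H1975 and 2.59, 1.56 and 3.92 CPM in PC9ER. Both lay far below the AALE means of 345.5 and 208.5 CPM on the same scale. TP63 differed by log2 fold changes of 7.25 ± 0.43 against H1975 (adjusted p = 2.23e-06) and 6.25 ± 0.41 against PC9ER (adjusted p = 3.34e-06). KRT8 had 1438, 1101 and 1107 CPM in H1975 and 5148, 4498 and 2503 CPM in PC9ER, beside 141 in AALE, and differed by log2 fold changes of -3.10 ± 0.27 against H1975 (adjusted p = 1.92e-05) and -4.85 ± 0.30 against PC9ER (adjusted p = 2.48e-06).

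Of the p53 targets 18 of 24 were higher and 0 lower against H1975 and PC9ER, beside 12.7% of all genes. CDKN1A had 127, 151 and 151 CPM in H1975 and 245, 179.9 and 195 CPM in PC9ER, at log2 fold changes of 2.92 ± 0.16 against H1975 (adjusted p = 1.61e-06) and 2.38 ± 0.16 against PC9ER (adjusted p = 3.68e-06). Of the G2/M genes 11 of 25 were lower and 0 higher, beside 14.5% of all genes. Of the cornified envelope genes 19 of 26 were higher and 1 lower. Of the 13 hemidesmosome and laminin-332 genes 2 were higher and 2 lower. LAMB3 was lower in AALE here, at log2 fold changes of -1.14 ± 0.15 against H1975 and -0.40 ± 0.15 against PC9ER. ITGB4 was not called against PC9ER (0.18 ± 0.34). FOXA1, ELF3 and CXCL1 were lower than in PC9ER (-3.62, -2.23 and -3.46) and not lower than in H1975 (0.99, -0.11 and 0.32). Of the HOX genes 5 of 24 were lower and 0 higher, and the median log2 difference was 0.32 against H1975 and -3.31 against PC9ER. HOXA3 had 0.32, 0.41 and 0.3 CPM in H1975 and 44.8, 45.9 and 22.9 CPM in PC9ER, so H1975 was below 1 CPM, as AALE was at 0.68, and the log2 fold change was 1.00 ± 0.41 against H1975 (adjusted p = 0.0645) and -5.79 ± 0.36 against PC9ER (adjusted p = 2.50e-06). EGFR was not called against either line, with 432, 476 and 435 CPM in H1975 and 245, 405 and 627 CPM in PC9ER, at log2 fold changes of 0.72 ± 0.40 against H1975 (adjusted p = 0.166) and 0.78 ± 0.40 against PC9ER (adjusted p = 0.119).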

How the data were processed

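Total RNA of 21 cell line samples was made into Illumina TruSeq mRNA libraries, per the labels' protocols. The authors aligned reads to GRCh37 with Bowtie2 and estimated expected counts per gene with RSEM, per the submitters' processing notes, and the deposited expected counts were used. For versions, the annotation release and strandedness: not given in the sources used here. Of the values above 0, 64.3% were not whole, and counts were rounded. Where IDs shared a symbol (335 symbols), gene lists and genes looked up by symbol used the ID with most counts. The tests and gene counts kept every ID. Figures of single genes and the count of genes that set an AALE library apart used the first ID of a symbol.

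The 9 overexpression libraries were fitted with edgeR 4.0.16 (R 4.3.3): TMM factors, filtering by expression per line, and a quasi-likelihood model of line plus vector. A gene was called at a Benjamini-Hochberg adjusted p of at most 0.05 in both contrasts with one sign. The 2-fold test was glmTreat, and standard errors are the fold change over the root of F. On simulated data, 76%, 62%, 54% and 84% of genes changed by log2 -2, -1, 1 and 2 were recovered, 0 in the wrong direction. There 50 genes per size were changed and all others were alike in the 3 lines, while in the data most genes differed. Genes lost to the filter (17730 of 18433 were tested) counted as missed. The rates therefore do not measure recovery in the data. DESeq2 1.42.0 and limma 3.58.1 were alternatives.

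Genes were named by rule: KRT14, TP63 and EGFR, the 15 per direction ranked highest by the smaller absolute log2 fold change at 10 CPM or more, and up to 4 per direction in each list. Other genes named singly (MDM2, MKI67, SPRR1B, IVL, TRIM29, NKX2-1 and the like) were chosen after their values were seen. Some genes that the rule or the lists hold are not reported here. The members and lists were chosen with earlier results of these data known. Log2 deviations of libraries with the same vector correlated at -0.106 to 0.021 between lines, so the vectors do not pair the libraries. The 12 other libraries entered only the comparison with H1975 and PC9ER and a fit of the 15 miRNA libraries. The floors cover counting error only. SDs and standard errors also hold the spread among libraries.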

Additional observations from a re-analysis of the deposited data

How the results depend on the processing

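Without the vector block the counts were 3998 higher and 3714 lower, against 3855 and 3603 with it; the vectors do not pair the libraries. Of 7458 calls, 5874 to 7424 were kept in the same direction over 17 alternatives (lowest in the fit of all 15 miRNA libraries), and 0 turned. Leaving out each library gave 3332 to 3734 higher and 3215 to 3618 lower, 1033 to 1206 and 1180 to 1342 past 2-fold, 9905 to 12115 between HCC827 and PC9, 70 to 73 genes on and 37 to 46 off, and 1828 to 3560 higher and 2138 to 3368 lower than in both H1975 and PC9ER. With DESeq2, 724 genes were more than 2-fold higher against 1238, and the cause was not tested. With control libraries alone 66 genes were off in AALE against 37. Counts of genes on and off can only stay or rise when libraries are left out. Their ranges therefore do not test how stable they are. List medians near 0 changed sign. For the RB pathway list (0.05) the median was -0.02 with no filter, -0.03 in the fit of 15 libraries and -0.05 to 0.14 without single libraries. Transport genes (-0.26) went to 0.05 and endothelial markers (0.19) to -0.35 with no filter. Without single libraries endothelial markers ranged from -0.05 to 0.27, metalloproteinases (-0.55) from -0.76 to 0.10, mesenchymal genes (0.09) from -0.14 to 0.32 and YAP targets (0.19) from -0.18 to 0.36. No named gene changed direction in the alternatives run. Each line has 3 libraries and 1 per vector, which limits the precision of every difference.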
